A study of Homo sapiens with 6 samples.

Results

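The chromatin around 10 genes of the Hippo pathway was followed in naive human embryonic stem (nES) cells with and without dimethyl-α-ketoglutarate (dm-αKG), a cell-permeable form of the metabolite α-ketoglutarate. The genes were the coactivators YAP1 and WWTR1 (which encodes TAZ), the DNA-binding factors TEAD1, TEAD2, TEAD3 and TEAD4, and the target genes CCN1, CCN2, AMOTL2 and ANKRD1. Every ATAC-seq peak that overlapped 1 of these genes or lay within 50 kb of it (GENCODE 44, hg38) was taken, which gave 244 of the 171517 peaks in the count table, and no peak belonged to more than 1 of the 10 windows. The cells were of H9, an established line of human embryonic stem cells, kept naive in tt2iLGö medium (N2B27 with inhibitors of MEK, GSK3 and protein kinase C and with human LIF). They were separated from a mouse feeder layer, plated on laminin and collected after 24 h with 4 mM dm-αKG (3 libraries) or 0 mM (3 control libraries). The labels name the controls DMSO where the protocols give 0 mM, and the labels add a culture period before dm-αKG was given that the study's methods do not mention. The experiment was done once, with biological replicates of 1 cell line, so the p-values measure the spread between these samples only. The study concerns entry into the trophectoderm, the outer lineage of the embryo that forms the placenta, and the comparison here asks whether dm-αKG changed the accessibility of the YAP-TEAD genes and their targets.

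YAP and TAZ do not bind DNA themselves. When the Hippo kinases are active they are phosphorylated and held in the cytoplasm, and when the kinases are quiet they enter the nucleus and act through TEAD factors, which recognise a short motif with the core GGAATG, often beside AP-1 sites. In the early embryo, nuclear YAP and TEAD4 in the outer cells switch on trophectoderm genes such as CDX2 and GATA3. CCN1 and CCN2, which encode secreted matricellular proteins, ANKRD1, which encodes an ankyrin repeat protein, and AMOTL2, which encodes an angiomotin that holds YAP back, are widely used as readouts of YAP and TAZ activity. ATAC-seq counts reads from DNA that a transposase could reach, so it measures how open a site is and not how much RNA the gene makes, and in bulk libraries fewer cells with an open site cannot be told apart from a less open site in every cell.

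The 3 peaks past both thresholds used here (adjusted p and fold), the TEAD4 intron peak with the smallest adjusted p of its window, and the stretches just before the starts of CCN2 and ANKRD1 are printed here, since the results turn on them. They are hg38 sequences, the peaks on the plus strand and the promoters (250 bases ending at the RefSeq start) on the strand of the gene. Capitals mark GGAATG, the TEAD core, or TGANTCA, the AP-1 site, on either strand.
TEAD1 intron peak, chr11:12687920-12688119: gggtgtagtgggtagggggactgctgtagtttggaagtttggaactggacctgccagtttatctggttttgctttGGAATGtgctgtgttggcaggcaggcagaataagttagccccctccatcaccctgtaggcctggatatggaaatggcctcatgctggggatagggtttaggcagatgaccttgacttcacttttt
TEAD1 intron peak, chr11:12696995-12697207: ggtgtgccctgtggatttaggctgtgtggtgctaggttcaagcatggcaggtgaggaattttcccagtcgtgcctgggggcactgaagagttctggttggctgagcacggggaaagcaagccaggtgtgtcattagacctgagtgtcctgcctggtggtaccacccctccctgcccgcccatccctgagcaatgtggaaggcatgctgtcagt
TEAD4 window peak inside TSPAN9, chr12:3082215-3082414: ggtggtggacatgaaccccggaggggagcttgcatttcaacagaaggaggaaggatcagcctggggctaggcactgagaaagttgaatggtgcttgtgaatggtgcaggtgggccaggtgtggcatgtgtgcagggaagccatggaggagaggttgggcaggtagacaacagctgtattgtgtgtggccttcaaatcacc
TEAD4 intron peak, chr12:2963950-2964160: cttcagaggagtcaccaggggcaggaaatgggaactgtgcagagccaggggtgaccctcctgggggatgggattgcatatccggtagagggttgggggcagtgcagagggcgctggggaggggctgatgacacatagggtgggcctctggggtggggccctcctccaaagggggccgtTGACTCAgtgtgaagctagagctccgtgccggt
CCN2 promoter, chr6:131951373-131951622: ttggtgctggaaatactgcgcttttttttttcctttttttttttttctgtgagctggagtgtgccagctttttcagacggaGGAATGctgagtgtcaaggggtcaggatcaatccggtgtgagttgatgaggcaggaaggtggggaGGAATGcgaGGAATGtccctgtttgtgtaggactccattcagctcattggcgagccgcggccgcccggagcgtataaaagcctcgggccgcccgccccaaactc
ANKRD1 promoter, chr10:90921088-90921337: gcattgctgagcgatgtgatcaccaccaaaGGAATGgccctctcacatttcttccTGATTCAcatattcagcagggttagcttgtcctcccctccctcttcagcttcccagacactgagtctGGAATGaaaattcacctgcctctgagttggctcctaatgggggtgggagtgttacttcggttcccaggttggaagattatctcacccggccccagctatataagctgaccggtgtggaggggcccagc

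Across the 10 windows, more peaks lost accessibility with dm-αKG than gained it. At an adjusted p below 0.01 (edgeR quasi-likelihood test over all 171517 peaks), 27 of the 244 peaks were lower in dm-αKG, 2 were higher and 215 did not pass. The share lower was 11.1% against 6.54% of all peaks, and the share higher was 0.82% against 3.34% of all peaks. With a log2 fold change beyond 1 in addition, 3 of the 244 peaks were called less accessible, a share below the 1.96% of all peaks. At that threshold 0 were called more accessible, against 0.782% of all peaks. The number called less accessible was 2 with limma-voom and with total-count scaling and 4 with DESeq2. Of the 3, 2 entered the table through the authors' control list only (chr11:12687920-12688119 and chr12:3082215-3082414), the group in which they are high. Of all control-only peaks, 11.8% were lower and 0.247% higher, a direction that this entry favours by construction. Among the 244, 35 peaks were control-only, of which 5 were lower (14.3%) and 0 higher. Among the 185 peaks present in both lists, 1 was called, and 22 were lower and 1 higher (11.9% and 0.54%, against 6.59% and 3.25% of all peaks in both lists). The count of 0 called more accessible was the same at an unadjusted p below 0.05 with that fold and with DESeq2 and limma-voom. In 71 of the 244 peaks every dm-αKG library lay below every control library (29.1%, against 16.9% of all peaks), and in 18 peaks every one lay above (7.38%, against 15.5%). The median log2 fold change was -0.11 over the 244 peaks and 0.01 over all peaks, and 148 of the 244 values were negative (60.7% against 48.8% of all peaks). The count of lower peaks was 16 with DESeq2, 14 without control library 1 and 15 without dm-αKG library 1. Shares of all peaks under these other fits are not given, so such counts, here and for single genes below, have no background beside them. The 6.54% belongs to the main edgeR fit.

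Of the 27 losses, 26 lay away from transcript starts. Of 176 peaks over 1 kb from any protein-coding start, 26 were lower (14.8%, against 8.42% of all such peaks) and 1 was higher (0.57% against 2.86%). Of the 68 peaks within 1 kb of a start, 1 was lower and 1 was higher (1.47% each, against 2.08% lower and 4.47% higher among all such peaks). Peaks whose nearest start was that of a member gene numbered 161, of which 21 were lower and 1 higher (13.04% and 0.62%). The other 83, nearer to a neighbouring gene, held 6 lower and 1 higher (7.23% and 1.20%), a share lower that is near the 6.54% of all peaks. Whether losses differed between these sets was not tested.

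**Figure D1:**
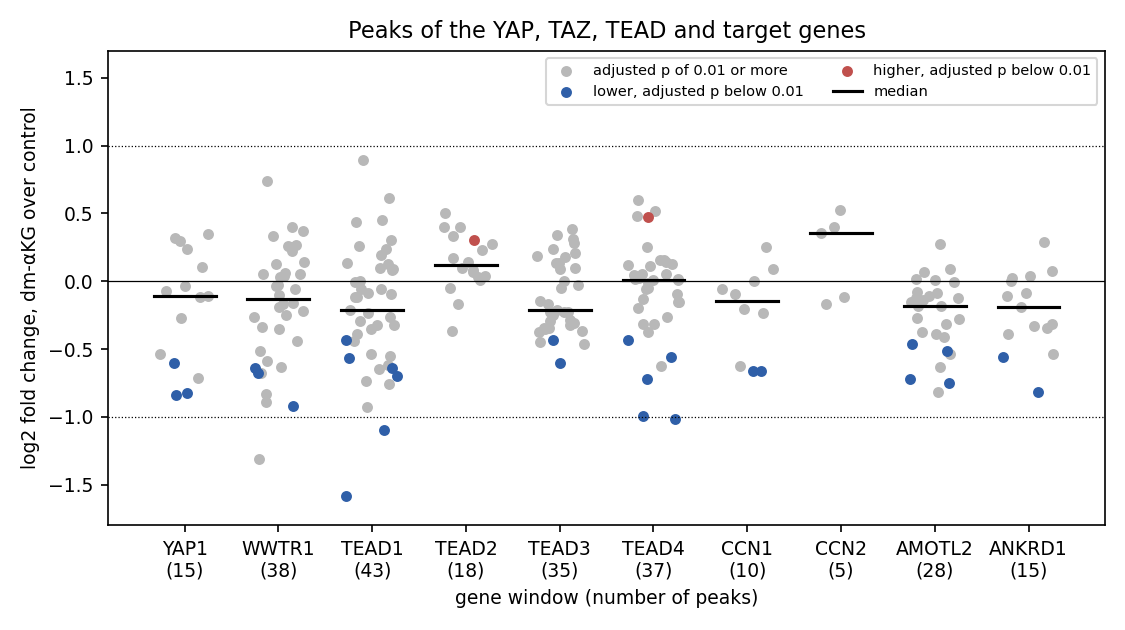
Each point is 1 of the 244 peaks, placed by gene window (x axis, number of peaks in brackets) and log2 fold change of dm-αKG over control (y axis), with bars at the median of each window and dotted lines at 1 and -1. Blue points (27) are lower and red points (2) higher at an adjusted p below 0.01, and 3 blue points lie below -1, 2 in the TEAD1 window and 1 in the TEAD4 window.

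TEAD1, the first of the 4 TEAD factors, lost accessibility within its introns. Of its 43 peaks, 6 were lower (13.95%, against 6.54% of all peaks) and 0 higher (against 3.34%). The counts were 3 and 0 with DESeq2 and 5 and 0 with limma-voom, and 4 were higher at an unadjusted p below 0.05. All 6 losses were among its 32 intron peaks. At chr11:12687920-12688119, in an intron 12.5 kb from the nearest TEAD1 start, the normalized counts (reads in the peak, scaled to a common library size) were 137, 122 and 152 in control and 42.3, 55.2 and 38.9 in dm-αKG. The control libraries stood well above the dm-αKG libraries without overlap, and the log2 fold change was -1.59 ± 0.18 (SE, as for every log2 fold change here, n = 3 per group, edgeR adjusted p = 7.6e-11), with the smallest adjusted p of the 244 peaks. This site, which carries 1 GGAATG, had a peak in the authors' control list only. At chr11:12696995-12697207, in an intron 21.6 kb from the start, control held 139.5, 139 and 135 and dm-αKG 66.7, 61.6 and 64.4, which were tightly grouped in both treatments (log2 fold change -1.09 ± 0.17, edgeR adjusted p = 3.4e-07). The 4 remaining intron losses had log2 fold changes between -0.70 and -0.43, and in 1 of them, chr11:12914580-12914804, the groups overlapped (363 to 480 in control, 280 to 367 in dm-αKG). The promoter peak of highest count, chr11:12674339-12674541, held 298 ± 9.18 (SD, as for every mean count here, n = 3) in control and 256 ± 17.5 in dm-αKG and did not pass (edgeR adjusted p = 0.13).

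**Figure D2:**
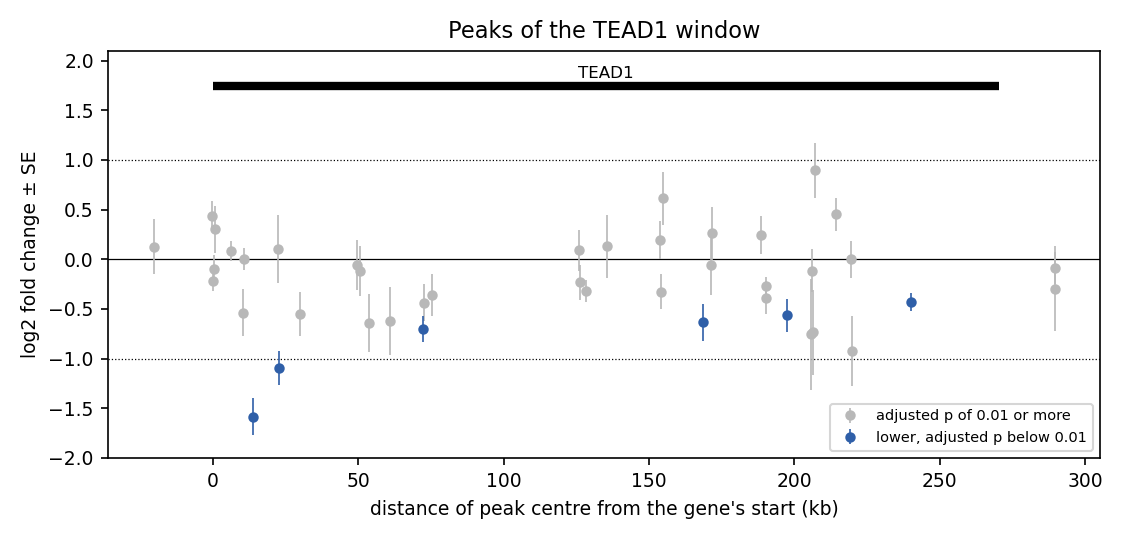
Log2 fold change with its SE (y axis) of the 43 peaks of the TEAD1 window by distance of the peak centre from the start of the gene in kb (x axis), with the gene drawn as a black bar. The 6 peaks that passed (blue) all lie inside the gene, the lowest 2 at 13.6 and 22.7 kb, and the peaks at the start scatter around 0.

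TEAD4, the family member that is needed for the trophectoderm in the mouse embryo, had 31 peaks in its window that did not pass. Of its 37 peaks, 5 were lower (13.5%, against 6.54% of all peaks) and 1 higher (2.70%, near the 3.34% of all peaks). Only 20 of the 37 were nearest to a TEAD4 start, of which 2 were lower and 1 higher. The other 17 were nearest to the start of another gene. The intron peak chr12:2963950-2964160, 4.1 kb past the nearest start and with 1 AP-1 site, held 705, 721 and 737 in control and 480, 458 and 537 in dm-αKG. All dm-αKG libraries were lower and the change was modest, with a log2 fold change of -0.56 ± 0.07 (edgeR adjusted p = 9.5e-09). A weaker intron peak at chr12:2982219-2982418 had a larger change, from 85.9 ± 14.6 to 41.4 ± 8.64 (log2 fold change -0.99, edgeR adjusted p = 0.00026), just short of the fold threshold. Just past it stood chr12:3082215-3082414, which lies 41.6 kb beyond the end of TEAD4 and inside TSPAN9, a tetraspanin gene, with 97.5, 78.9 and 97.2 in control and 53.8, 32.1 and 44.9 in dm-αKG (log2 fold change -1.01 ± 0.21, edgeR adjusted p = 0.00011). This peak was in the control list only, and its fold fell short of the threshold, with the adjusted p still below 0.01, with limma-voom (-0.995), with total-count scaling (-0.997) and without control library 1 (-0.956), control library 3 (-0.972) or dm-αKG library 2 (-0.85). The peak higher in dm-αKG, chr12:2959776-2960157 at the TEAD4 promoter, held 229, 177 and 191 in control and 326, 251 and 235 in dm-αKG, ranges that nearly met (log2 fold change 0.47 ± 0.11, edgeR adjusted p = 0.0013). With DESeq2, 0 TEAD4 peaks were higher. The strongest TEAD4 promoter peak, chr12:2959269-2959475 with 3 GGAATG, held 354 ± 13.1 and 365 ± 16.5 and did not pass (edgeR adjusted p = 0.74).

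TEAD2 and TEAD3 lie among other genes, and most of their peaks were nearer to neighbours. Of the 18 TEAD2 peaks, 17 were nearest to the start of another gene (SLC6A16, CD37, DKKL1 or KASH5). In this window 0 were lower, against 6.54% of all peaks (also 0 at an unadjusted p below 0.05, with DESeq2 and with limma-voom). With dm-αKG 1 was higher (5.56%, against 3.34% of all peaks). That peak, chr19:49338840-49339241 in CD37, a leukocyte tetraspanin gene, held 465, 566 and 492 in control and 635, 620 and 632 in dm-αKG (log2 fold change 0.31 ± 0.08, edgeR adjusted p = 0.0021). It missed the threshold with DESeq2 (adjusted p = 0.011) and in edgeR without control library 1 (0.048), control library 3 (0.015) or dm-αKG library 1 (0.012). The only peak at the TEAD2 start, chr19:49362353-49362552, was weak and scattered, at 82.8 ± 23.2 in control and 73.1 ± 17.2 in dm-αKG (edgeR adjusted p = 0.59). Of the 35 TEAD3 peaks, 28 were nearest to another gene, and of the 7 nearest to TEAD3 0 were lower. In the whole window 2 were lower (5.71%), which is near the 6.54% of all peaks. The clearer one, chr6:35519691-35519897, lies 22.7 kb upstream of TEAD3 and nearest to TULP1, and held 335, 361 and 380 in control and 240.2, 233 and 232 in dm-αKG (log2 fold change -0.60 ± 0.10, edgeR adjusted p = 1.6e-06). The other, chr6:35473933-35474144 in the last part of TEAD3 beside RPL10A, a ribosomal protein gene, changed from 250.5 ± 7.12 to 185 ± 15.1 (log2 fold change -0.44, edgeR adjusted p = 0.0031).

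At the coactivator genes 6 of 53 peaks were lower (11.3%, against 6.54% of all peaks) and 0 higher (against 3.34%) in edgeR. The promoter peaks of highest count did not pass. At YAP1 3 of 15 peaks were lower (20%). At WWTR1 3 of 38 were lower (7.89%), which is near the 6.54% of all peaks and below the 8.42% of all peaks over 1 kb from a start. DESeq2 passed 0 lower at YAP1, 1 lower at WWTR1 and 0 higher, limma-voom 6 and 0, and an unadjusted p below 0.05 was reached by 1 higher peak. At WWTR1 all 3 were intronic, and chr3:149577844-149578043 among them was in the control list only. The one with the smallest adjusted p, chr3:149641406-149641620 with 1 GGAATG and 1 AP-1 site, held 81.4, 92.9 and 72.9 in control and 47.3, 46.2 and 35.9 in dm-αKG (log2 fold change -0.92 ± 0.21, edgeR adjusted p = 0.00064), and it missed the threshold without control library 2 (adjusted p = 0.015). At YAP1, chr11:102260359-102260564 lies 27.0 kb past the end of the gene and carries 1 GGAATG. It held 82.3, 76.4 and 60.7 in control and 43.7, 39.8 and 38.9 in dm-αKG (log2 fold change -0.84 ± 0.22, edgeR adjusted p = 0.0031). This call was lost with DESeq2 (adjusted p = 0.018) and in edgeR without control library 1 (0.038), control library 2 (0.021), dm-αKG library 1 (0.012) or dm-αKG library 2 (0.0145). An intron peak of YAP1, chr11:102115637-102115836, changed from 65.6 ± 4.53 to 36.7 ± 3.10 (edgeR adjusted p = 0.0059). It was in the control list only, the group in which it is high. The remaining YAP1 loss, at chr11:102277857-102278061, was nearest to BIRC3, an inhibitor of apoptosis gene. The YAP1 promoter held 359 ± 22.5 in control and 332 ± 16.98 in dm-αKG (edgeR adjusted p = 0.43). The WWTR1 promoter held 394, 379.8 and 384 in control and 326, 309 and 326 in dm-αKG, with all dm-αKG libraries lower and a log2 fold change of -0.27 that did not reach the threshold (edgeR adjusted p = 0.026).

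Of the 58 peaks of the target genes, 8 were lower (13.8%, against 6.54% of all peaks) and 0 higher (against 3.34%) in edgeR. The losses were 2 of 10 peaks at CCN1 (20%), 4 of 28 at AMOTL2 (14.3%) and 2 of 15 at ANKRD1 (13.3%). At CCN2 there were 0, in a window that holds 5 peaks, so that 0 is near the share of all peaks. DESeq2 passed 6 lower and limma-voom 7, with 0 higher and 0 at CCN2 by each tool and at an unadjusted p below 0.05. CCN1 was the gene with a loss at its own 5′ end. There, chr1:85580589-85580794, which holds 1 GGAATG and overlaps the annotated start, held 274, 293 and 338 in control and 196, 139.8 and 235 in dm-αKG (log2 fold change -0.66 ± 0.12, edgeR adjusted p = 7.5e-06). Every dm-αKG library was below every control library, although dm-αKG library 3 was close to control library 1. The peak near a CCN1 start with the highest mean over all 6 libraries, chr1:85581324-85581530, held 319, 259 and 259 against 271, 267 and 305, and did not differ beyond this spread (log2 fold change 0.00, edgeR adjusted p = 1.00). The difference between these CCN1 peaks was not tested. A second CCN1 loss, at chr1:85607357-85607559 and 22.9 kb past the end of the gene, carries 1 GGAATG and 1 AP-1 site and changed from 225 ± 15.1 to 146 ± 31.0 (log2 fold change -0.66, edgeR adjusted p = 6.2e-05).

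CCN2 and ANKRD1, whose promoters hold the clustered TEAD cores printed above, had promoter peaks that did not pass. The CCN2 promoter peak, chr6:131951348-131951556, with 3 GGAATG, held 614, 599 and 595 in control and 581, 516 and 567 in dm-αKG. All dm-αKG libraries were lower, by a log2 fold change of -0.12 ± 0.07 (edgeR adjusted p = 0.29), and 0 of the 5 CCN2 peaks passed. The CCN2 peak with the smallest adjusted p, chr6:131910043-131910245, lies 38 kb past the gene's end and nearest to ENPP1. It went the other way, with 65.3, 49.3 and 58.3 in control and 69.6, 83.4 and 76.3 in dm-αKG (log2 fold change 0.40 ± 0.20, edgeR adjusted p = 0.16). The median log2 fold change of the 5 peaks was 0.35, and 2 were negative. The ANKRD1 promoter peak, chr10:90921175-90921375, with 2 GGAATG and 1 AP-1 site, held 239.7, 219 and 196 in control and 252, 236 and 195 in dm-αKG, which overlapped (log2 fold change 0.08 ± 0.11, edgeR adjusted p = 0.70). The ANKRD1 losses lay upstream, 4.5 kb from the start at chr10:90925495-90925704 (112 ± 7.81 to 63.6 ± 8.93, log2 fold change -0.82, edgeR adjusted p = 0.00036) and 9.5 kb from it at chr10:90930493-90930700 (233 ± 32.3 to 158 ± 12.2, log2 fold change -0.56, edgeR adjusted p = 0.0004).

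AMOTL2, the target that restrains YAP, had 4 losses, 1 in an intron and 3 downstream. The one with the smallest adjusted p, chr3:134326971-134327179, lies 28.3 kb past the end of the gene and held 295, 267 and 300.02 in control and 195, 203 and 207 in dm-αKG, well apart (log2 fold change -0.51 ± 0.11, edgeR adjusted p = 0.00019). The intron peak, chr3:134358288-134358505, changed from 125 ± 5.00 to 75.9 ± 2.46 (log2 fold change -0.72, edgeR adjusted p = 0.00078). The AMOTL2 promoter held 480 ± 25.6 in control and 454 ± 52.1 in dm-αKG (edgeR adjusted p = 0.56).

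**Figure D3:**
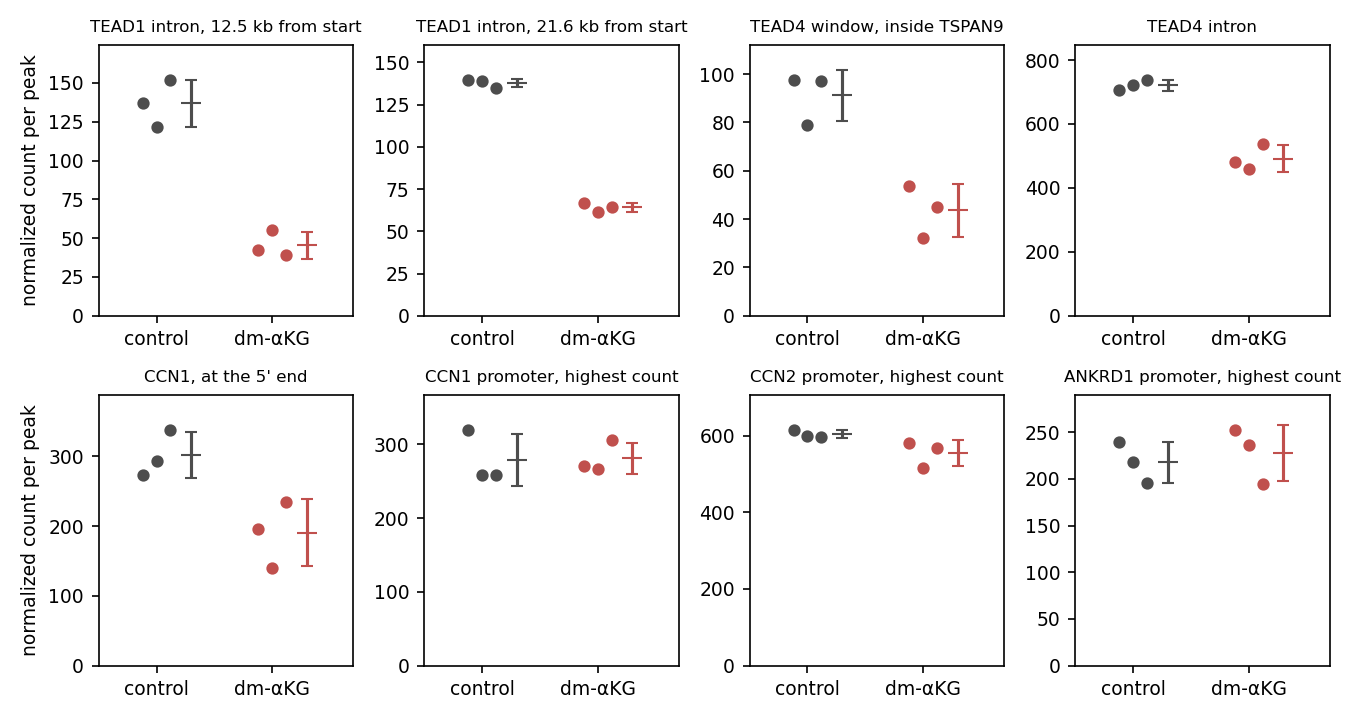
Normalized count per peak (y axis, from 0) in each control library (grey) and dm-αKG library (red), with the mean and SD beside the points, for 8 peaks. The 4 TEAD peaks of the upper row and the peak at the CCN1 5′ end separate by treatment, the CCN1 and ANKRD1 promoter peaks overlap, and the CCN2 promoter peak is lower in dm-αKG by a small margin that did not pass (adjusted p = 0.29).

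The promoter peaks were of similar width, and their levels are compared per 100 bp. The peak of each gene is the one with the highest mean count over all 6 libraries. In control, CCN2 was the most accessible at 288 ± 4.86 normalized counts per 100 bp (SD, n = 3), followed by AMOTL2 (202 ± 10.8), WWTR1 (184 ± 3.37), YAP1 (178 ± 11.1), TEAD4 (171 ± 6.35), TEAD1 (147 ± 4.52), CCN1 (135 ± 16.9), ANKRD1 (108 ± 11.0), TEAD2 (41.4 ± 11.6) and TEAD3 (38.5 ± 4.55). The control libraries of WWTR1 and YAP1 overlapped, as did those of YAP1 and TEAD4, of TEAD1 and CCN1, and of TEAD2 and TEAD3, while the other neighbours in this order were separate. The CCN1 peak highest in control alone was chr1:85580589-85580794 at 146 ± 15.9 per 100 bp, level with TEAD1. Since the peaks were picked on a mean that includes dm-αKG, this CCN1 peak, which was lower at an adjusted p of 7.5e-06 (edgeR), is not among the 10, and their count bears on these peaks only. Of these 10 peaks, 0 passed an adjusted p of 0.01 in either direction (edgeR), and their log2 fold changes ran from -0.27 at WWTR1 to 0.31 at TEAD3. Of all peaks within 1 kb of a start, 2.08% were lower and 4.47% higher, so 0 of 10 is near the shares of all such peaks. DESeq2 and limma-voom also passed 0 of the 10, and 2 were lower and 0 higher at an unadjusted p below 0.05.

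**Figure D4:**
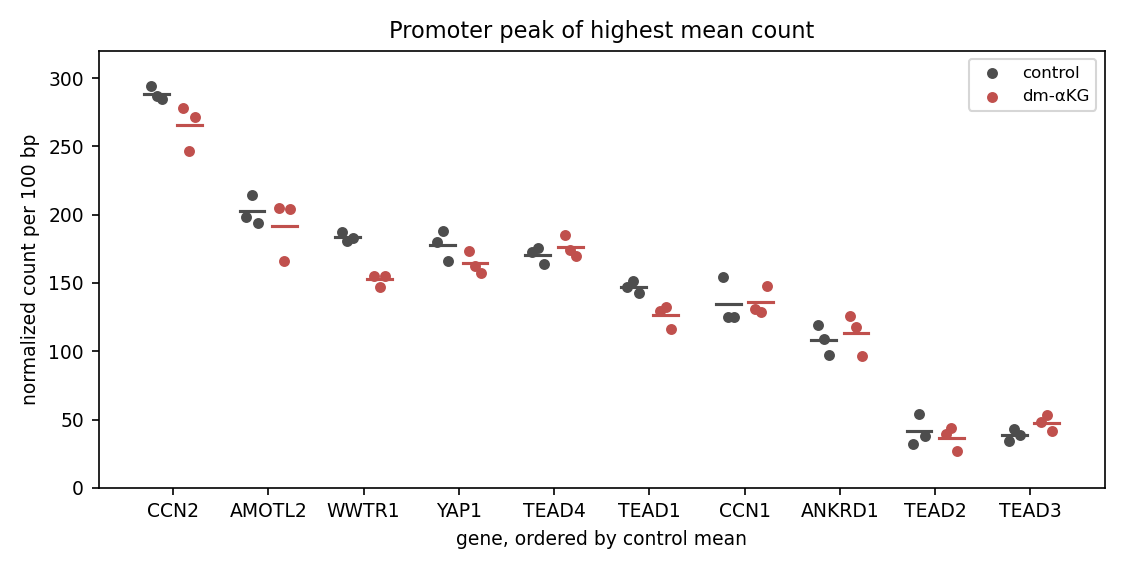
Normalized count per 100 bp (y axis, from 0) of the promoter peak with the highest mean count of each gene (x axis, ordered by control mean), 3 control libraries in grey and 3 dm-αKG libraries in red, with bars at the means. CCN2 stands highest (288 in control), TEAD2 and TEAD3 lowest (41.4 and 38.5), and in WWTR1 all dm-αKG points lie below the control points without passing the threshold (adjusted p = 0.026).

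Summed over all peaks of a window, 7 of the 10 genes were lower in dm-αKG and 1 was higher (edgeR adjusted p below 0.01 over 19587 protein-coding genes, of whose windows 9.91% were lower and 14.6% higher, with a median log2 fold change of 0.02). TEAD1 fell by 14.1%, from 4547 ± 167 to 3906 ± 72.2 (SD, n = 3, log2 fold change -0.22 ± 0.03 SE, adjusted p = 9e-06). CCN1 fell by 14.98% (adjusted p = 0.00031), although dm-αKG library 3, at 92.4% of the control mean, stood above the other dm-αKG libraries at 80.9% and 81.8%. The mean also fell in ANKRD1 (-12.7%, adjusted p = 0.00072), AMOTL2 (-12.4%, adjusted p = 1.8e-05), TEAD3 (-10.4%, adjusted p = 0.00011), YAP1 (-10.3%, adjusted p = 0.0021) and WWTR1 (-8.69%, adjusted p = 0.0026), and in each the libraries of both treatments did not overlap. TEAD2 rose by 11.8% (adjusted p = 0.00034), in a sum of 18 peaks of which 17 were nearest to the neighbouring genes named above. The TEAD3 sum has the same limit, since 28 of its 35 peaks were nearest to another gene. The sums of TEAD4 (-4.59%, adjusted p = 0.062) and CCN2 (-3.02%, adjusted p = 0.55) did not pass, and the libraries of CCN2 overlapped. The share of all gene windows in which the libraries do not overlap was not counted, so these separations have no background beside them. The YAP1 call was lost without control library 1 (adjusted p = 0.034), without dm-αKG library 2 (0.019) and with a window of 10 kb (0.32). The WWTR1 call was lost without control library 1 (0.037), control library 3 (0.011), dm-αKG library 1 (0.027) or dm-αKG library 2 (0.021).

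**Figure D5:**
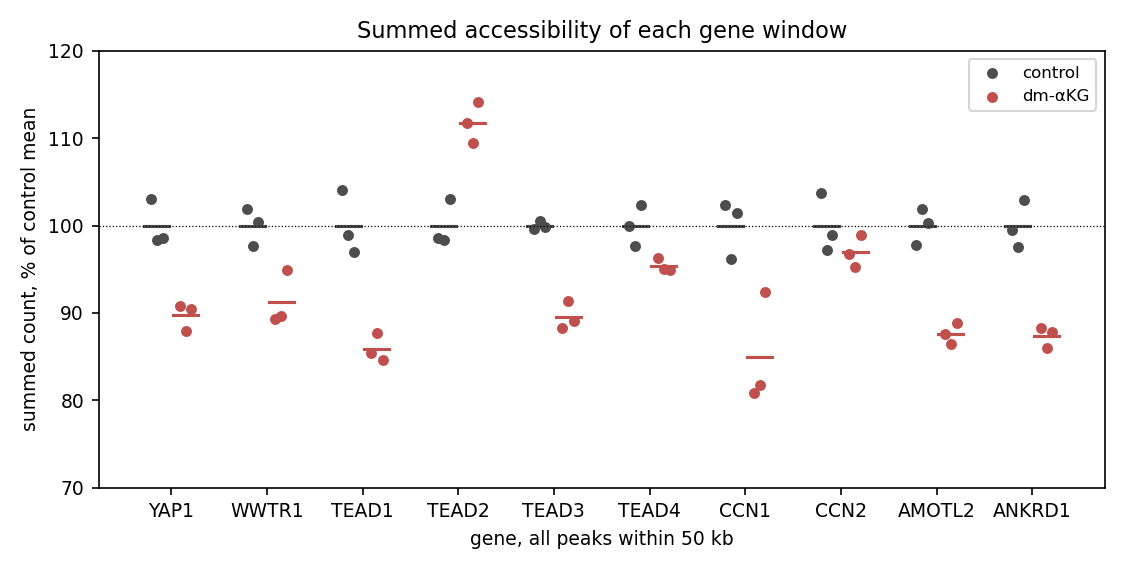
Summed normalized count of all peaks within 50 kb of each gene as a percentage of its control mean (y axis, which starts at 70 and not at 0), 3 control libraries in grey and 3 dm-αKG libraries in red, with bars at the means. The dm-αKG points lie below the control points in 8 windows, of which TEAD4 did not pass (adjusted p = 0.062), overlap them in CCN2 and lie above them in TEAD2 (109% to 114%). The share of all gene windows that separate in this way was not counted.

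GGAATG on either strand, within the central 200 bp of each peak, occurred in 53 of the 244 peaks (21.7%, 95% Wilson interval 17.01 to 27.3) and in 14.6% of all peaks. Among peaks over 1 kb from a start the shares were 22.2% (interval 16.7 to 28.9) and 16.9%, and the interval includes the share of all such peaks. The AP-1 site TGANTCA occurred in 25 of the 244 (10.2%, interval 7.04 to 14.7, against 6.33% of all peaks). Over 1 kb from a start it was in 10.8% (7.02 to 16.2, which includes the 7.66% of all such peaks). The octamer ATGCAAAT, the site of OCT4, occurred in 4 (1.64%, interval 0.639 to 4.14, against 2.28%). Of the 53 peaks with GGAATG, 11 were lower and 0 higher (2 higher at an unadjusted p below 0.05, 0 with DESeq2 and limma-voom), and of the 191 without it 16 were lower and 2 higher, which is 20.8% and 8.38% lower, where all peaks gave 10.4% with the word and 5.88% without it. The target genes held 17 of the 53, of which 5 were lower. The 8 peaks with 2 or more copies, among them the CCN2, ANKRD1, TEAD1 and TEAD4 promoters, held 0 lower and 0 higher (also with DESeq2 and limma-voom, and 1 lower and 0 higher at an unadjusted p below 0.05), with log2 fold changes from -0.22 to 0.19. For 8 peaks, 0 is near the 10.4% lower and 2.51% higher of all peaks with the word. All peaks with 2 or more copies were not counted, and an effect of the number of copies was not tested. In the 250 bases before the start, 11.9% of 35116 RefSeq promoters hold at least 1 GGAATG and 6.57% hold TGANTCA, and CCN2 holds 3 GGAATG where ANKRD1 holds 2 and 1 TGANTCA. A match is a word in the sequence and not a measured binding site, and neighbouring peaks are not independent.

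In the rest of the pathway, the counts of summed windows that passed are read beside the 9.91% lower and 14.6% higher of all gene windows. Whether they differed from those of the 10 genes was not tested. Of 15 genes of Hippo kinases, scaffolds and inhibitors, 1 window was lower and 1 higher, namely PTPN14, a phosphatase that retains YAP in the cytoplasm (log2 fold change -0.13, adjusted p = 0.0079), and MAP4K4, a kinase upstream of LATS1 and LATS2 (0.14, adjusted p = 0.0081). Windows of the core kinases MST and LATS did not pass, with log2 fold changes of -0.02 at STK3, 0.09 at STK4, 0.05 at LATS1 and -0.05 at LATS2. Of the 4 VGLL genes, whose products bind TEAD factors, 0 passed in either direction in edgeR at the adjusted threshold, 0 passed with DESeq2 or limma-voom, and 2 were higher at an unadjusted p below 0.05. Of 14 other reported YAP and TAZ targets, 3 were lower and 2 higher. The lower ones were ASAP1 (log2 fold change -0.16, adjusted p = 0.00015), RBMS3 (-0.15, 0.0019) and MYOF (-0.11, 0.0088), and the higher ones were the receptor kinase gene AXL (0.15, 0.0047) and CRIM1 (0.14, 0.0053).

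The libraries held 13025674 to 26828622 counts in peaks, with TMM factors of 0.991 to 1.01. Promoter peaks were present at 5 of 5 naive markers, 3 of 3 general pluripotency markers, 4 of 4 trophectoderm markers and 2 of 2 primed markers, so the presence of an open promoter did not separate these cell types here. The summed promoter counts ran from 1822 to 1969 in control and 1941 to 2072 in dm-αKG for the naive list, and from 1104 to 1190 and 1157 to 1223 for the trophectoderm list, overlapping in both. KLF17, a naive factor, was lower (405 to 310.1, log2 fold change -0.39, adjusted p = 0.001), SUSD2, a naive surface marker, was higher (746 to 936.5, 0.33, adjusted p = 0.00011), DUSP6, a primed marker and target of ERK signalling, was lower (469 to 384, -0.30, adjusted p = 0.0093), and 0 of the 4 trophectoderm promoters passed (edgeR, DESeq2 and limma-voom, and 0 at an unadjusted p below 0.05). Of all peaks within 1 kb of a start, 2.08% were lower and 4.47% higher, so 0 of 4 trophectoderm promoters is near these shares. The part of these markers in the results above was not tested.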

How the data were processed

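ATAC-seq counts of 6 libraries (3 control, 3 dm-αKG) were analysed, grouped by the treatment in the labels. The authors demultiplexed reads with bcl2fastq 2.20.0.422, aligned them to hg38 with Bowtie2 in the ENCODE ATAC-seq pipeline, called peaks per replicate with MACS2 and kept reproducible ones, 1 list per treatment. They shortened peaks to 200 bp around the summit, merged both lists and deposited raw counts per merged peak and library (bedtools 2.28.0). The merged table depends on both lists, so a site can enter through 1 treatment. The deposited lists also hold each peak's signal as a fold over background and its q-value as −log10, and only the positions were used here, to say which list held a peak.

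Counts were tested over all 171517 peaks in R 4.3.3 with edgeR 4.0.16 (TMM scaling, quasi-likelihood fit, treatment as the only term, no filter), adjusted by Benjamini-Hochberg. A peak passed at an adjusted p below 0.01 and was called with an absolute log2 fold change above 1 as well. Normalized counts were scaled to the mean effective library size. Each SE was taken as the absolute log2 fold change over the root of its F statistic. Counts were also summed over the peaks within 50 kb of each of 19587 protein-coding genes (GENCODE 44, whose windows share peaks) and tested in the same way. An exact permutation test of 3 against 3 libraries has a smallest p of 0.1, so the tests rest on the fit over all features. In simulated data on 171517 peaks, 94 of 100 peaks changed by 4-fold were called, 68 of 100 changed by 2-fold passed, and 1 unchanged peak passed.

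For each gene, the promoter peak (centre within 1 kb of a start) with the highest mean count and the peak with the smallest adjusted p are named, together with every called peak. Other peaks that passed were named after their values were seen. The 10 genes, the lists of pathway and marker genes and these rules were chosen with earlier results of these data known. Motifs were exact words searched with Python 3.11.15. Intervals cover counting error only and treat peaks as independent, which neighbouring peaks are not. In the read counts, PCR copies of a molecule could not be identified by a molecular tag. RefSeq promoters were matched by symbol for 7 of the 10 genes and were identical to hg38. DESeq2 1.42.0 (no adjusted p for 6652 peaks), limma 3.58.1 with voom, other scalings, a minimum of 10 counts in every library, a replicate block, leaving out each library, other windows and restricted sets of peaks were the alternatives.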

Additional observations from a re-analysis of the deposited data

How the results depend on the processing

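The direction of the median log2 fold change of the 244 peaks (-0.11) held under every alternative run. It was -0.091 with total-count scaling, -0.19 with peaks inside the genes only (119 peaks) and -0.16 with peaks nearest to a start of a member gene (161 peaks), and ran from -0.13 to -0.095 when each library was left out. The number of lower peaks (27) was 16 with DESeq2 and 15 inside the genes only, and 14 to 25 without 1 library, lowest without control library 1 (14) and dm-αKG library 1 (15). The number of higher peaks (2) was 0 with DESeq2, 4 with RLE scaling, 4 with total-count scaling, and 1 each with peaks inside the genes, in both treatment lists, or nearest to a member gene, and 1 (without control library 1) to 4 (without dm-αKG library 3) without 1 library. Peaks called less accessible (3) were 1 among peaks of both lists and 2 to 4 without 1 library, and peaks called more accessible (0) were 0 to 1, the 1 without dm-αKG library 3. The 8 genes with a changed summed count were 6 to 8 without 1 library. The cause of these differences was not tested, apart from the smaller sets of peaks and samples that some alternatives use by construction. Shares of all peaks under the alternative fits are not given beside these counts.

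The replicate number as a block gave 4 peaks called less accessible, 24 lower and 3 higher, a median of -0.10 and 8 changed genes. Deviations of same-numbered libraries correlated at -0.016, -0.0014 and 0.013, and 1 of 3 pairs correlated best with its own number, so the numbers were not taken to pair the libraries.

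Several peaks that did not pass in any of these fits had log2 fold changes near 0 that changed sign. The TEAD2 promoter peak ran from -0.34 (without control library 1) to 0.098 (control library 2), the ANKRD1 promoter peak from -0.015 (dm-αKG library 1) to 0.16 (dm-αKG library 3), the AMOTL2 promoter peak from -0.14 (dm-αKG library 1) to 0.0092 (dm-αKG library 2), and the CCN1 promoter peak of highest count from -0.055 (dm-αKG library 3) to 0.12 (control library 1). The last also gave 0.032 without dm-αKG library 1, 0.028 without dm-αKG library 2, 0.0042 with DESeq2, 0.00093 with RLE scaling and 0.016 with total-count scaling. Peaks of low count limit what could be seen, since 230 of the 244 had at least 10 counts in every library.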
